A study of Mus musculus with 653 samples.

Results

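Hox genes encode homeodomain transcription factors that lie in clusters on separate chromosomes and are numbered into paralogue groups from anterior to posterior. In the embryo the genes at the anterior end of a cluster are active from the hindbrain and branchial arches backwards, and those at the posterior end in the tail, limbs and urogenital region, so that the combination of active genes marks where along the body axis a cell arose. Mesenchyme and muscle precursors carry such a code, and their Hox proteins bind DNA together with TALE homeodomain partners of the Pbx, Meis and Pknox families. The genes described here were all those whose mouse symbol reads Hox, a cluster letter a to d and a paralogue number, and that had at least 1 read in the deposited counts. Of 39 such genes in a table of 54195, 23 qualified, and 22 of them passed 10 reads in at least 1 cell. *Hoxc11* was the exception, with 2 reads in all. The other 16 Hox genes, among them every gene of paralogue group 6, were listed at 0, as were 25903 genes of the table. Whether these 16 were unexpressed or lost in counting was not examined. Shares of paralogue groups and bands, most posterior genes and weighted means below therefore cover the 23 genes with reads only.

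The cells were single cells of the embryonic mouse liver, sequenced with Smart-seq2, a full-length method without molecular identifiers. Embryos came from Lgr5-EGFP-IRES-creERT2 males kept on C57BL/6 and from MF1 mothers, so that GFP and creERT2 were driven by the *Lgr5* locus, a Wnt target that marks stem cells in several adult tissues. Liver cells were sorted at E10.5 and E13.5 as Liv2+/CD31-/CD45- cells (bulk) or as the GFP+ fraction of that gate (Lgr5-GFP+), which gave 414 cells at E10.5 and 239 at E13.5, of which 80 were Lgr5-GFP+ and the rest bulk. No label tied a cell to an embryo, litter or sort, so each group counts as 1 sample, no test between groups was possible, and intervals are exact 95% binomial (Clopper-Pearson) or Poisson limits that cover counting error only. Reads in genes per cell ranged from 463347 to 2279700 with a median of 1192740. The titles also placed each cell in 1 of 5 library pools, and every comparison was repeated within pools holding at least 5 cells of both sides.

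Cells were assigned by over 10 reads of exactly 1 of 4 markers: *Afp*, a fetal serum protein of hepatoblasts, *Klf1*, the erythroid transcription factor, *Pdgfra*, a growth factor receptor of mesenchyme, and *Pax3*, a transcription factor of muscle and neural crest precursors. At E10.5 the bulk sort held 75 *Pdgfra*, 32 *Klf1*, 6 *Afp* and 2 *Pax3* cells, 82 cells lacking every marker and 6 carrying more than 1. The E10.5 Lgr5-GFP+ sort held 64 *Pdgfra*, 53 *Afp*, 23 *Pax3* and 0 *Klf1* cells, 66 without a marker and 5 with more than 1. The classes were set beside the marker lists of their usual cell types. Each of these lists includes the gene that set the class, so every cell began with 1 of the 3 genes asked for. At least 3 hepatoblast genes passed 10 reads in 100% of *Afp* cells and at least 3 erythroid genes in 93.8% of *Klf1* cells. At least 3 mesenchyme genes did so in 91.4% of *Pdgfra* cells and at least 3 muscle progenitor genes in 80% of *Pax3* cells, while 32% of *Pax3* cells also passed on the mesenchyme list and 0% on the neural crest and neural list. The unmarked cells were mixed, with 38.5% passing on the mesenchyme list and 19.6% on the erythroid list.

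The 23 genes fell into the Hoxa cluster on chromosome 6 (6 genes with reads), the Hoxb cluster on chromosome 11 (6), the Hoxc cluster on chromosome 15 (4) and the Hoxd cluster on chromosome 2 (7). Sequences of the 250 bases before the annotated start, from RefSeq on GRCm38.p6, were found for 16 of them. At the first listed start of each gene they were searched on both strands for a Pbx-Hox motif (TGATNNAT), a Cdx motif (TTTATG) and the core hexamer of the retinoic acid receptor (AGGTCA), the binding letters of the partners and of upstream factors known at these loci. The Pbx-Hox letters occurred before *Hoxa2*, *Hoxb1* and *Hoxb8* and in 7.68% of 32851 promoters of the same length, the Cdx letters before *Hoxa7*, *Hoxb8*, *Hoxd3* and *Hoxd11* and in 10.8%, and the receptor letters before *Hoxb4*, *Hoxc4*, *Hoxd3* and *Hoxd10* and in 14.02%. In *Hoxd3* the Cdx and receptor matches overlapped. A second listed start of *Hoxd11* held the Pbx-Hox letters and is not counted here. Sequences are given for genes called in the comparison of *Pax3* with *Pdgfra* cells below. The first 3 are the posterior Hoxa genes that were higher in *Pax3* cells and held none of these letters, and the other 3 are leading anterior and central genes of *Pdgfra* cells, with the match in capitals. The windows lie at chr6:52227371-52227620 (*Hoxa9*, minus strand), chr6:52240855-52241104 (*Hoxa10*, minus strand, the first of its listed starts), chr6:52245811-52246060 (*Hoxa11*, minus strand), chr6:52164832-52165081 (*Hoxa2*, minus strand, Pbx-Hox match on the opposite strand), chr11:96365508-96365757 (*Hoxb1*, plus strand, Pbx-Hox match) and chr15:103034145-103034394 (*Hoxc4*, plus strand, receptor match on the opposite strand). The *Hoxa9* and *Hoxc4* windows lie inside the spans that Ensembl gives for these genes, which have further starts.
Hoxa9: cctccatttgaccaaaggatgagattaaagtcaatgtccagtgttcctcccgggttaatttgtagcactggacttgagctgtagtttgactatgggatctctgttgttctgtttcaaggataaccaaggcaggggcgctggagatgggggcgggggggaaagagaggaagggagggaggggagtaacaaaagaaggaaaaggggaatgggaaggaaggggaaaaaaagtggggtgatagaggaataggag
Hoxa10: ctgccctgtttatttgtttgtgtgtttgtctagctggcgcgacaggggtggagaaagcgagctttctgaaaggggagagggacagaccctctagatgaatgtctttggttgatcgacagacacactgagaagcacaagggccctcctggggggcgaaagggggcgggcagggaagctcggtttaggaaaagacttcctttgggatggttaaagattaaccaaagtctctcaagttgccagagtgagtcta
Hoxa11: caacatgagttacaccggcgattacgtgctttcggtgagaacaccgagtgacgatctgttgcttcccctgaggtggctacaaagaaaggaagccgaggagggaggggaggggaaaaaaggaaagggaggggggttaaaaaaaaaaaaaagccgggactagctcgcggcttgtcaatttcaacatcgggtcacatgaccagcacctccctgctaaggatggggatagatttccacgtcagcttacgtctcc
Hoxa2: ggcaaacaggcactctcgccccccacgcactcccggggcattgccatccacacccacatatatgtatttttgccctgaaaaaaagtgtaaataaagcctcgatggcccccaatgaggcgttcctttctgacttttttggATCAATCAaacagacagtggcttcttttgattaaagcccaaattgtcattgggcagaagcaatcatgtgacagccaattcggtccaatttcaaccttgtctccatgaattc
Hoxb1: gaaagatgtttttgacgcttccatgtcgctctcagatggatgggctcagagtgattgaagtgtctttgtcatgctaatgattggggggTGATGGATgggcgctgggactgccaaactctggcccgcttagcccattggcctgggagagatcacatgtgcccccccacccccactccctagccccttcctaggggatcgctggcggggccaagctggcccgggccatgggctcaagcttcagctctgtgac
Hoxc4: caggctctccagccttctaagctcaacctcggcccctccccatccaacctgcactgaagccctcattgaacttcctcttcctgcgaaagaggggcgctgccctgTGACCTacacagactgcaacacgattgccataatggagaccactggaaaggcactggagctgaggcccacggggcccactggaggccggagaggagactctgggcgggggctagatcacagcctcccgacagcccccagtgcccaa

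At E10.5 *Pdgfra* cells and *Pax3* cells carried Hox reads, and *Afp* and *Klf1* cells had almost none. Over 10 reads of at least 1 Hox gene were found in 54 of 75 bulk and 51 of 64 Lgr5-GFP+ *Pdgfra* cells, together 75.5% (interval 67.5 to 82.4). They were found in 16 of 25 *Pax3* cells (64%, 42.5 to 82.03) and in 81 of the unmarked cells (54.7%, 46.3 to 62.9). None of the 59 *Afp* cells had one, for which a floor of 3 counts allows a share of up to 5.08% and the exact interval reaches 6.06%. None of the 32 *Klf1* cells had one, which allows up to 9.38% by the same floor and 10.9% by the exact interval. Depth did not separate the classes, the median running from 1194520 reads in *Pdgfra* cells to 1310560 in *Klf1* cells. Pool makeup did differ, since 33 of the 59 *Afp* cells came from pool 2, where 4 of 20 *Pdgfra* cells had a Hox gene. Pools 3, 4 and 5 held 10, 5 and 9 *Afp* cells. Their exact intervals reach 30.8%, 52.2% and 33.6%, below the *Pdgfra* shares of 89.7%, 100% and 96.2% in these pools. Counting any single read instead, 15 of 59 *Afp* cells and 9 of 32 *Klf1* cells had a Hox read, and the highest summed Hox level in any of them was 2.31 reads per 1000000 reads in genes (RPM) in an *Afp* cell and 1.98 RPM in a *Klf1* cell. In *Pdgfra* cells the summed Hox level had a median of 193.4 RPM and reached 4151 RPM.

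**Figure D1:**
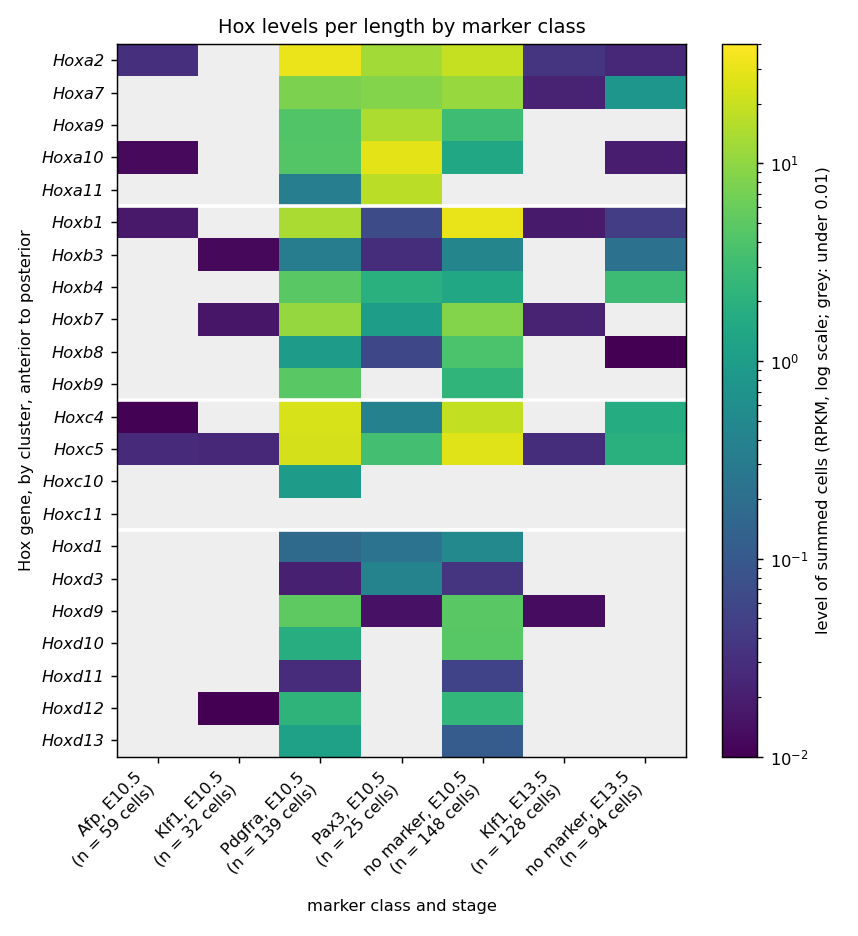
Levels of Hox genes (rows, by cluster and from anterior to posterior) in the summed cells of each marker class and stage (columns), in RPKM on a log colour scale, with values under 0.01 in grey. *Hoxc4* and *Hoxc5* stand out in E10.5 *Pdgfra* cells at 24.2 and 23.6, *Hoxa9* to *Hoxa11* in *Pax3* cells at 14.2 to 28.2, and the *Afp* and *Klf1* columns stay under 0.05.

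Ordered by level per length (RPM divided by kilobases of exon, RPKM), the leading genes of *Pdgfra* cells were anterior and central. *Hoxa2*, which patterns the hindbrain and the second branchial arch, came first at 31.6 RPKM, but 46.7% of its reads came from 1 cell with 4502 reads. *Hoxc4* followed at 24.2 RPKM and *Hoxc5* at 23.6 RPKM, both genes of the cervical and upper thoracic region. Their reads were more evenly spread, with at most 12.3% and 5.76% from any 1 cell. *Hoxb1*, known from the fourth rhombomere of the hindbrain, stood at 13.8 RPKM and *Hoxb7* at 10.9 RPKM. They passed 10 reads in 15 and 13 *Pdgfra* cells, and 37.2% and 24.2% of their reads came from 1 cell each. Neighbours in this order, such as *Hoxc4* and *Hoxc5*, were not separated by anything but their read totals, since no replicate spread exists.

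By share of cells *Hoxc4* and *Hoxc5* came first. *Hoxc4* passed 10 reads in 62 *Pdgfra* cells (44.6%, 36.2 to 53.3), between 10.48 and 1454 RPM with a median of 95.6 RPM. *Hoxc5* passed in 49 cells (35.3%, 27.3 to 43.8), between 9.21 and 676 RPM with a median of 157.5 RPM. *Hoxa2* passed in 31 cells with a median of 105.02 RPM, and *Hoxb4*, the second gene of paralogue group 4 with reads, in 28 cells with a median of 33.8 RPM. Paralogue group 4 was therefore seen in 72 *Pdgfra* cells (51.8%), group 5 in 35.3% and group 1 in 19.4%. Further back the shares stood at 20.1% for group 7, 10.1% for group 8, 15.8% for group 9, 5.04% for group 10 and 2.16% for group 11. Groups 5 and 8 had 1 gene with reads each, *Hoxc5* and *Hoxb8*, so the shares of groups depend on which genes had counts.

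**Figure D2:**
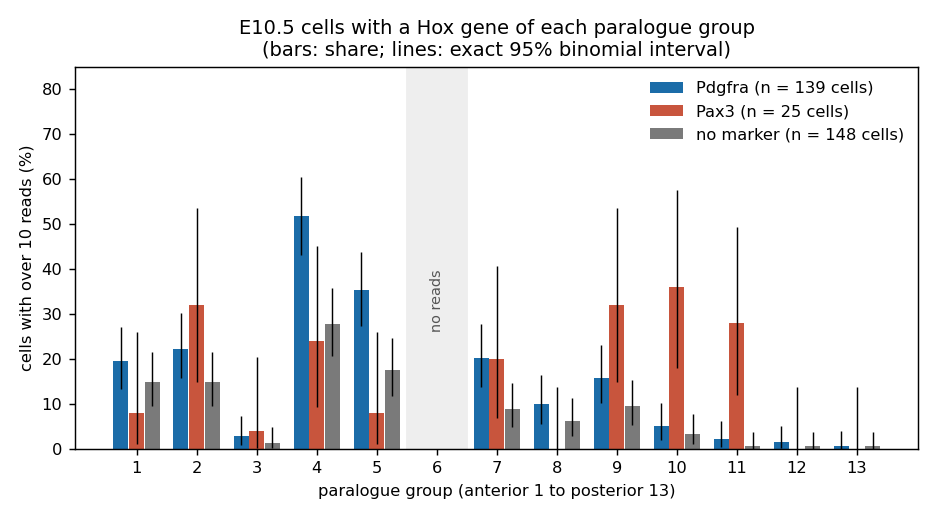
Share of E10.5 cells (y axis, %) with over 10 reads of a Hox gene of each paralogue group (x axis, 1 to 13) in *Pdgfra*, *Pax3* and unmarked cells; bars are shares and lines exact 95% binomial intervals. *Pdgfra* cells are highest at group 4 (51.8%), and *Pax3* cells stand at 32% for group 9, 36% for group 10 and 28% for group 11, where *Pdgfra* cells stand at 15.8%, 5.04% and 2.16%.

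A *Pdgfra* cell with Hox reads held a median of 3 Hox genes and at most 11. The pair that passed together most often was *Hoxc4* and *Hoxc5*, in 38 cells, 61.3% of the *Hoxc4* cells and 77.6% of the *Hoxc5* cells. *Hoxb4* and *Hoxc4*, paralogues on different chromosomes, met in 18 cells, 64.3% of the *Hoxb4* cells and 29.03% of the *Hoxc4* cells. The first of these shares is near that of *Hoxc4* over all cells with a Hox gene. Whether any pair met more often than the shares of its genes would give was not tested. *Hoxa9* and *Hoxd9* met in 8 cells, out of 13 with *Hoxa9* and 12 with *Hoxd9*, and all 4 *Hoxd10* cells were among the 7 *Hoxa10* cells. Of the cells with a Hox gene, 14 held genes of the anterior groups 1 to 3 alone, 34 of the central groups 4 to 8 alone and 4 of the posterior groups 9 to 13 alone. A further 35 joined anterior with central genes, 13 central with posterior genes, 5 all 3 bands, and 0 joined anterior with posterior genes without a central one.

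The most posterior gene of each *Pdgfra* cell, taken as its address, had a median of paralogue group 5 with quartiles at 4 and 8. It was group 4 in 25 cells and group 5 in 25 cells, and 22 cells (15.8%, 10.2 to 22.98) held a posterior gene. *Hoxa9* was present in 13 of these cells and *Hoxd9* in 12. *Hoxb9* was present in 9, with 73.5% of its reads in 1 cell of 1548 reads. The genes of the very end of the Hoxd cluster, which pattern digits and the genital bud, came from a handful of cells: *Hoxd12* passed in 2 *Pdgfra* cells at 304 and 324 RPM and *Hoxd13* in 1 at 362 RPM. Weighted by level per length, the mean paralogue group of *Pdgfra* cells was 4.73. The remaining rare genes were *Hoxb3*, *Hoxc10*, *Hoxd1*, *Hoxd3* and *Hoxd11*, which passed in 5, 3, 5, 4 and 2 cells in all. Of the exon bases of *Hoxb3* and *Hoxd3*, 47.1% and 37.2% are not shared with another gene, so their counts are uncertain.

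Library pool moved with these shares. A Hox gene over 10 reads was found in 14 of 28 *Pdgfra* cells of pool 1 (50%, 30.6 to 69.4) and in 4 of 20 of pool 2 (20%, 5.73 to 43.7). In pools 3, 4 and 5 the share was 89.7%, 100% and 96.2%, above the intervals of both other pools. Median depth did not follow the shares, being 1147690 and 1176700 reads in pools 1 and 2 and 1328040, 1233650 and 884328 in pools 3, 4 and 5. The median number of detected genes did, at 4592.5 and 4282.5 against 7055, 6878.5 and 6077.5, while the median of *Pdgfra* reads per cell was 352 and 621 against 258 and 197.5 in pools 4 and 5 and less in pool 3. Unmarked cells were less far apart, at 50% and 34.5% against 65.4%, 68.4% and 68.2%. The part of the pool in these shares was not tested. The most posterior gene had a median group of 4, 7, 5, 5 and 5 in *Pdgfra* cells of pools 1 to 5, with only 4 Hox-carrying cells in pool 2. The mean group weighted by level per length was 3.26, 4.85, 4.29, 5.27 and 5.84.

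**Figure D3:**
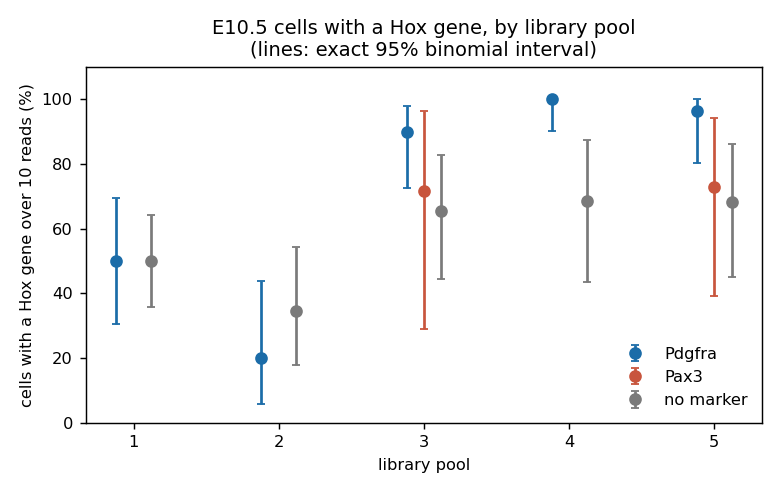
Share of E10.5 cells with a Hox gene over 10 reads (y axis, %) in each library pool (x axis) for *Pdgfra*, *Pax3* and unmarked cells, for pools with at least 5 cells; points are shares and lines exact 95% binomial intervals. *Pdgfra* cells are at 50% and 20% in pools 1 and 2 and between 89.7% and 100% in the other pools.

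*Pax3* cells carried a different set, led by the posterior Hoxa genes. *Hoxa10*, which patterns the lumbar region and limb, came first at 28.2 RPKM, *Hoxa11*, a gene of the forearm and of limb muscle precursors, next at 16.9 RPKM, and *Hoxa9* then stood at 14.2 RPKM. *Hoxa2* at 12.6 RPKM and *Hoxa7* at 8.49 RPKM followed. Summed over the cluster, Hoxa genes stood at 258 RPM in *Pax3* cells and at 126.6 RPM in *Pdgfra* cells, whereas Hoxc genes stood at 11.4 RPM against 137.02 RPM, Hoxb genes at 6.99 RPM against 77.7 RPM and Hoxd genes at 2.18 RPM against 23 RPM.

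In single *Pax3* cells *Hoxa10* passed 10 reads in 9 of 25 (36%, 17.97 to 57.5), between 40.3 and 556 RPM with a median of 193.8 RPM. *Hoxa9* passed in 8 (32%, 14.9 to 53.5), between 12.6 and 515.5 RPM with a median of 269 RPM, and *Hoxa11* in 7 (28%, 12.1 to 49.4), between 11.2 and 235 RPM with a median of 89.3 RPM. These were nested, since all 8 *Hoxa9* cells and all 7 *Hoxa11* cells were among the 9 *Hoxa10* cells, and so were all 5 *Hoxa7* cells. In *Pdgfra* cells *Hoxa10* passed in 5.04% (2.05 to 10.1) and *Hoxa11* in 2.16% (0.447 to 6.18), shares whose intervals lie below those of *Pax3* cells, while *Hoxa9* at 9.35% (5.07 to 15.5) just met the *Pax3* interval. Conversely, *Hoxc4* passed in 2 of 25 *Pax3* cells (8%, 0.984 to 26.03), below the interval in *Pdgfra* cells.

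**Figure D4:**
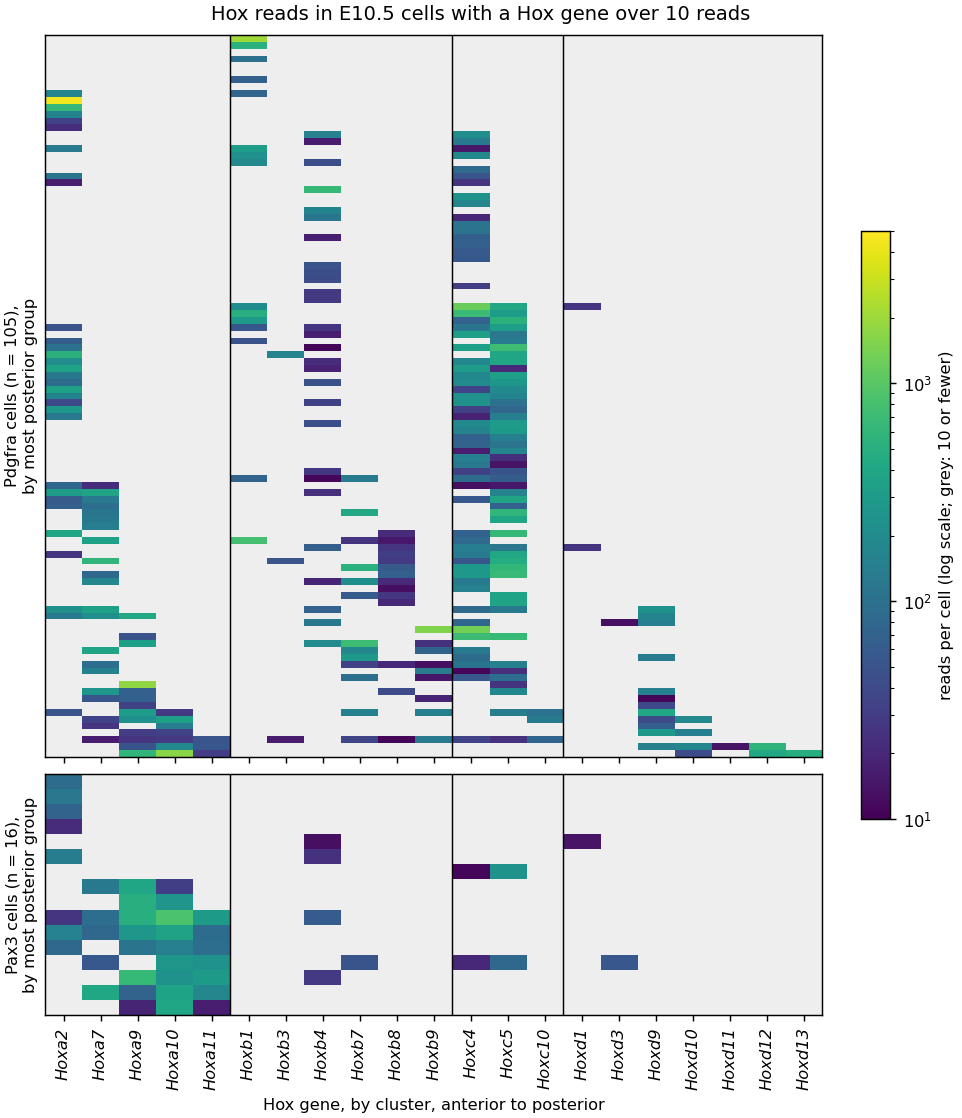
Reads of each Hox gene (columns, by cluster and from anterior to posterior) in every E10.5 *Pdgfra* cell (upper panel) and *Pax3* cell (lower panel, 16 cells) with a Hox gene over 10 reads (rows, ordered by the most posterior paralogue group), on a log colour scale with 10 or fewer reads in grey; in a wholly grey row the gene over 10 reads is not among the columns. The *Hoxc4* and *Hoxc5* columns run through the upper panel, and the 9 cells with *Hoxa10* form the block of *Hoxa9* to *Hoxa11* in the lower panel.

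The address of the 16 *Pax3* cells with Hox reads was split. The most posterior gene lay in group 11 in 7 cells and in group 10 in 2, in group 2 in 4 cells, and in groups 4 or 5 in the remaining 3, with a median of 10 and quartiles at 3.5 and 11. The median was 5 without pool 4 and 4.5 with any read of a marker as the threshold. The 4 cells at group 2 carried *Hoxa2*, the anterior gene found in 8 *Pax3* cells in all, between 16.96 and 206.01 RPM. *Lbx1*, a gene of muscle precursors that migrate away from the somite, passed 10 reads in 20 of the 25 *Pax3* cells. Of these 20 cells, 8 had a posterior Hox gene and 8 had *Hoxa2*, while of the 5 cells without *Lbx1* 1 had a posterior gene and 0 had *Hoxa2*. All 9 posterior cells were Lgr5-GFP+, as were 23 of the 25 *Pax3* cells. Within pools the median address was 10 in the 5 Hox-positive cells of pool 3 and 3 in the 8 of pool 5, and the mean weighted by level per length was 7.92 and 7.23, against 8.09 over all *Pax3* cells.

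Compared gene by gene as ratios of summed RPM, *Pax3* and *Pdgfra* cells differed in both directions. A gene was called where it had at least 1 RPM over both sides together and differed at least 2-fold, in the same direction in every usable pool, here pools 3 and 5. Of 19 Hox genes that reached this level, 3 were higher in *Pax3* cells, where 5.09% of all 13736 genes were, and 12 were lower, where 21.7% were. The median log2 ratio over the Hox genes was -3.50, beside -0.35 over all genes. The higher genes were *Hoxa11* (38.7 against 0.797 RPM, 48.6-fold), *Hoxa10* (92.3 against 14.1 RPM, 6.57-fold) and *Hoxa9* (79.2 against 23.3 RPM, 3.40-fold). Among the lower genes, *Hoxc4* stood at 0.981 against 62.3 RPM (63.5-fold), *Hoxb1* at 0.158 against 32.03 RPM from 5 reads (202.5-fold), and *Hoxc5* at 10.4 against 72.96 RPM (7.01-fold). *Hoxb9* had 0 reads in *Pax3* cells and was at least 129.02-fold lower. The other lower genes included *Hoxa2*, *Hoxb3*, *Hoxb4*, *Hoxb7*, *Hoxb8*, *Hoxc10* and *Hoxd9*. Of the *Hoxa2* reads in *Pdgfra* cells, 46.7% came from 1 cell, as given above. By share *Hoxa2* lay the other way, at 32% of *Pax3* cells (14.9 to 53.5) and 22.3% of *Pdgfra* cells (15.7 to 30.1). These intervals overlap. *Hoxa7* was at 24.4 against 22.1 RPM. In Lgr5-GFP+ cells alone the counts were 3 higher and 7 lower, and with any read of a marker as the threshold 4 higher and 6 lower. Counting was not known to use strand, and 65.02% of the exon bases of *Hoxa11* are free of the antisense gene *Hoxa11os*, so reads of the pair over the rest cannot be told apart. *Hoxa11os* was itself higher in *Pax3* cells, at 43.1 against 3.90 RPM (11.03-fold), and passed 10 reads in 8 of the 9 posterior *Pax3* cells and in 0 of the other 7 with Hox reads.

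Unmarked E10.5 cells had 4 of the 5 leading genes of *Pdgfra* cells among their own. Their leading genes per length were *Hoxb1* at 30.4 RPKM, *Hoxc5* at 26.7 RPKM, *Hoxa2* at 19.4 RPKM, *Hoxc4* at 18.8 RPKM and *Hoxa7* at 11.1 RPKM, the median address was again group 5, and 16 cells (10.8%) held a posterior gene. *Hoxb1* passed in 17 of them, with a median of 465 RPM, against 138.8 RPM in the 15 *Pdgfra* cells that carried it, and in 0 of 25 *Pax3* cells. *Hoxa11* passed in 0 unmarked cells.

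Against *Afp* and *Klf1* cells the difference ran one way. Against *Afp* cells, 7 of 18 Hox genes were called higher in *Pdgfra* cells, beside 12% of 13899 genes, and 0 were called lower, beside 6.8%. All 18 exceeded 2-fold over the pools together, with a median log2 ratio of 8.24 beside 0.37 over all genes. Counts under 3 on a side were set to 3 for ratios, so the Hox medians against *Afp* and *Klf1* cells are lower bounds. The called genes included *Hoxa9*, *Hoxb1*, *Hoxb8*, *Hoxb9*, *Hoxc4* and *Hoxc5*. *Hoxc5* had 12542 reads in *Pdgfra* cells and 6 in *Afp* cells (72.96 against 0.0818 RPM, 891-fold), and *Hoxc4* 10705 and 2 reads, a log2 ratio whose counting interval ran from 9.303 to 14.20. The remaining 11 were at or under the floor of 3 reads on both sides in pool 2 and so were not called there, and without pool 2 the count was 14. Against *Klf1* cells, 14 of 18 were called higher, beside 28.3% of 13760 genes, and 0 lower, beside 10.3%, with a median log2 ratio of 7.33 beside 0.56. With any read of a marker as the threshold 0 of the 14 calls against *Klf1* cells and 4 calls against *Afp* cells were left, among 59 *Pdgfra*, 40 *Klf1* and 47 *Afp* cells, and a Hox gene passed 10 reads in 45% of those *Klf1* cells and 17.02% of those *Afp* cells. *Hoxc4* and *Hoxa2* had 0 reads in *Klf1* cells and were at least 813-fold and at least 733-fold higher in *Pdgfra* cells. Fewer Hox-carrying cells and less Hox RNA per cell cannot be told apart in such sums, and both classes are also compared by share above.

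Hox genes were much rarer at E13.5. Among bulk cells 51.2% (44.1 to 58.3) had a Hox gene over 10 reads at E10.5, and 2 cells (1.26%, 0.153 to 4.47) had one at E13.5. Of 16 Hox genes tested, 7 were called higher at E10.5, beside 14.1% of 13694 genes, and 0 lower, beside 5.71%, with a median log2 ratio of 8.84 beside 0.29. They were *Hoxa9*, *Hoxa10*, *Hoxb1*, *Hoxb4*, *Hoxb8*, *Hoxc4* and *Hoxc5*. *Hoxc5* stood at 56.04 RPM at E10.5 and 0.113 RPM at E13.5 (497-fold), and *Hoxb1* at 37.99 and 0.0508 RPM (748-fold). The makeup of the sort changed with stage, since the E13.5 bulk cells held 1 *Pdgfra* and 32 unmarked cells, 1 cell with several markers, and otherwise *Klf1* cells. Within *Klf1* cells of the bulk sort, 0 Hox genes reached 1 RPM at either stage, while 4.93% and 7.95% of 11064 genes were called higher and lower at E10.5. Among unmarked bulk cells 46 of 82 (56.1%, 44.7 to 67.05) had a Hox gene at E10.5 and 2 of 32 (6.25%, 0.766 to 20.8) at E13.5. Unmarked cells also differed in makeup between the stages. Over both sorts at least 3 genes of the mesenchyme list passed in 38.5% at E10.5 and 9.57% at E13.5, of the leukocyte list in 0% and 17.02%, and of the endothelium list in 5.41% and 19.1%, and the part of this makeup in the Hox shares was not tested.

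**Figure D5:**
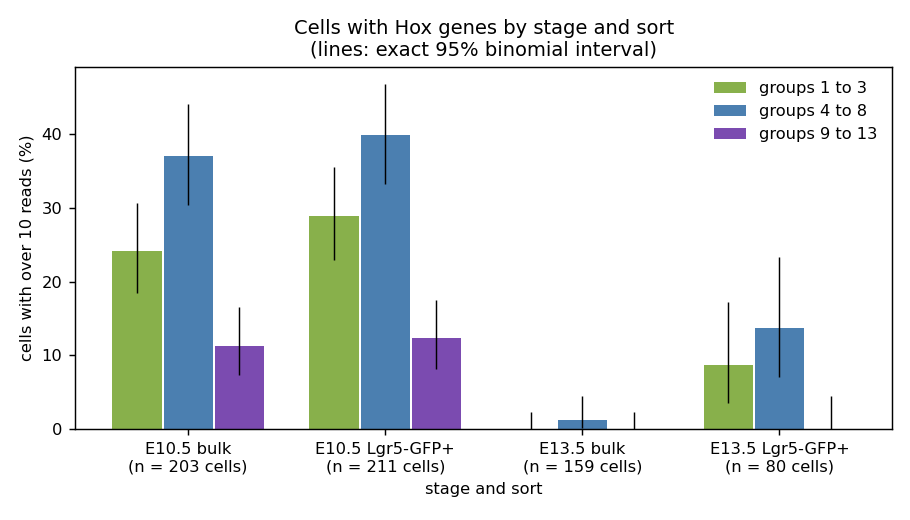
Share of cells (y axis, %) with over 10 reads of a Hox gene of groups 1 to 3, 4 to 8 or 9 to 13 in the E10.5 and E13.5 bulk and Lgr5-GFP+ groups; bars are shares and lines exact 95% binomial intervals. Central genes stand at 36.9% and 39.8% of E10.5 bulk and Lgr5-GFP+ cells, and no posterior gene is seen at E13.5.

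In the E13.5 Lgr5-GFP+ group 17 of 80 cells (21.2%, 12.9 to 31.8) carried a Hox gene, an interval above that of E13.5 bulk and below that of E10.5. Of the 19 Hox-carrying E13.5 cells, 18 had a single Hox gene. *Hoxc4* and *Hoxc5* passed in 4 of them each, *Hoxb4* in 3, *Hoxb3* in 1, and *Hoxa7* in 2 cells, both from the bulk sort at 82.6 and 146.2 RPM. No gene of paralogue groups 9 to 13 passed in any of the 239 E13.5 cells, which by the floor of 3 counts allows a share of up to 1.26%. Among E10.5 cells 49 of 414 had one. Many of the 239 were *Klf1* cells, a class without a Hox gene over 10 reads at E10.5 as well. By class the exact interval at E13.5 reaches 36.9% in the 8 *Pdgfra* cells, 52.2% in the 5 *Pax3* cells and 3.85% in unmarked cells. The E10.5 shares of these classes were 15.8%, 36% and 10.8%, so only the unmarked limit lies below its E10.5 share. The 19 Hox-carrying E13.5 cells were 16 unmarked cells, 2 *Pax3* cells and 1 *Pdgfra* cell. Between E13.5 Lgr5-GFP+ and bulk cells 4 Hox genes were tested and 0 were called either way, beside 7.21% of 13378 genes higher and 8.92% lower. The median log2 ratio over the tested genes was 8.47 beside 0.21. *Hoxb4* (884 against 0 reads), *Hoxc4* (601 against 5) and *Hoxc5* (798 against 20) were past 2-fold over the pools together, and each lacked a difference in at least 1 pool. Single unmarked Lgr5-GFP+ cells held 833 of the *Hoxb4*, 417 of the *Hoxc4* and 277 of the *Hoxc5* reads.

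Between the sorts at E10.5 no Hox gene was called. A Hox gene passed in 49.8% of Lgr5-GFP+ cells (42.8 to 56.7), inside the bulk interval. Of 18 Hox genes tested 0 were called in either direction, beside 2.51% of 14284 genes higher and 1.79% lower in Lgr5-GFP+ cells, and the median log2 ratio was -0.69 beside 0.00. The sorts differed in makeup, most in *Afp*, *Pax3* and *Klf1* cells as given above. *Hoxa11* stood at 5.09 RPM in Lgr5-GFP+ and 0.344 RPM in bulk cells, and 7 of its 11 E10.5 cells were *Pax3* cells. The posterior Hoxd genes lay the other way: *Hoxd9* was at 1.28 against 13.4 RPM, and *Hoxd12* and *Hoxd13* had 0 reads in Lgr5-GFP+ cells and 2085 and 541 in bulk cells, from 3 and 2 cells with over 10 reads. None of these differed in 1 direction in every pool.

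Within *Pdgfra* cells, 51 of 64 Lgr5-GFP+ cells (79.7%, 67.8 to 88.7) and 54 of 75 bulk cells (72%, 60.4 to 81.8) had a Hox gene. Of 18 genes tested, *Hoxc5* was called higher in Lgr5-GFP+ cells, 1 gene beside 1.19% of 13653 genes, and 0 were called lower, beside 1.08%. *Hoxc5* stood at 102.1 against 46.01 RPM (2.22-fold) and passed in 31 of 64 Lgr5-GFP+ cells (48.4%, 35.8 to 61.3) and 18 of 75 bulk cells (24%, 14.9 to 35.3). It was higher in all 5 pools, by a log2 ratio between 0.71 and 6.36, and lost its call without pool 1, where the ratio over the rest fell under 2-fold. *Hoxc4*, its neighbour, was at 66.99 against 57.9 RPM. Posterior genes passed in 9 of 64 Lgr5-GFP+ (14.1%, 6.64 to 25.02) and 13 of 75 bulk *Pdgfra* cells (17.3%, 9.57 to 27.8). Read by *Lgr5* itself, 18 of the 19 *Pdgfra* cells with over 10 *Lgr5* reads carried a Hox gene (94.7%, 73.97 to 99.9) and 87 of the 120 others did (72.5%, 63.6 to 80.3), intervals that overlap. Of the 23 *Afp* cells with over 10 *Lgr5* reads, 0 did.

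The TALE partners, a list of 9 Pbx, Meis and Pknox genes, were present in every class. Their summed level was 2469 RPM in *Pdgfra*, 1476 RPM in *Pax3*, 654 RPM in *Afp* and 315 RPM in *Klf1* cells. Against *Afp* cells 7 of 9 were called higher in *Pdgfra* cells, beside 12% of all genes, with *Meis2* at 499 against 100.6 RPM and *Meis3* at 154.06 against 5.91 RPM. Against *Klf1* cells 6 were higher, beside 28.3% of all genes, and *Pbx4* was lower, beside 10.3%. Of the 9, 2 were called lower in *Pax3* than in *Pdgfra* cells, beside 21.7% of all genes, and 1 higher, beside 5.09%. *Pax3* cells had less *Meis1* (73.7 against 380 RPM) and *Meis2* (208.07 against 499 RPM) than *Pdgfra* cells and more *Pbx4* (28.9 against 2.27 RPM). *Pbx3* passed 10 reads in 90 of the *Pdgfra* cells with a Hox gene (85.7%, 77.5 to 91.8) and in 11 of 34 without (32.4%, 17.4 to 50.5). The cells without a Hox gene came mostly from pools 1 and 2, as given above. At E10.5 5 of the 9 were higher in bulk cells than at E13.5, beside 14.1% of all genes, among them *Meis2* at 434 against 0.841 RPM.

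Regulators of Hox genes, a list of 17, were set beside the Hox genes. Most are polycomb, Cdx or retinoic acid genes, and *Gdf11* is among the others. Of 15 tested, 0 were called between *Pdgfra* and *Afp* cells in either direction, beside 12% and 6.8% of all genes. Against *Klf1* cells 7 of 14 were higher in *Pdgfra* cells, beside 28.3% of all genes, including the retinoic acid synthase *Aldh1a2* (59.99 against 0.179 RPM) and the receptors *Rara*, *Rarb* and *Rarg*. *Suz12* was lower, beside 10.3% of all genes. *Pax3* cells had less *Rara* (20.7 against 67.3 RPM), *Rarb* (6.55 against 42.01 RPM), *Rarg*, *Cyp26a1* and *Ring1* than *Pdgfra* cells, beside 21.7% of all genes lower, and more *Bmi1* (42.01 against 17.04 RPM), a polycomb subunit, beside 5.09% higher. Of 13 tested across the stages, *Aldh1a2*, *Cbx2*, *Rara* and *Rarg* were higher and *Suz12* lower in E10.5 than in E13.5 bulk cells, beside 14.1% and 5.71% of all genes. Of 4 noncoding and neighbouring genes of the clusters tested, 2 were higher in *Pdgfra* than in *Afp* cells, beside 12% of all genes, and 0 lower, beside 6.8%. They were *Hotairm1* and *Hoxd3os1*, at 16.3 against 0.300 RPM and 3.93 against 0 RPM. Against *Klf1* cells 3 of 5 tested were higher, beside 28.3% of all genes, and 0 lower, beside 10.3%.

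A list of 10 position genes, transcription factors that mark limb, flank and gut regions, was set beside the Hox bands in *Pdgfra* cells. *Pitx1*, the hindlimb factor, passed 10 reads in 7 of 22 posterior cells (31.8%, 13.9 to 54.9) and in 9 of 83 other cells with a Hox gene (10.8%, 5.08 to 19.6), intervals that overlap. *Tbx5*, the factor of forelimb and heart field, passed in 9 of 22 and 32 of 83. *Gata4*, a factor of septum transversum and heart, passed in 1 of 22 and 21 of 83, and *Barx1*, of stomach mesenchyme, in 0 of 22 and 9 of 83. The intervals of *Tbx5*, *Gata4* and *Barx1* overlapped as well. In *Pax3* cells 8 of the 10 were lower than in *Pdgfra* cells, beside 21.7% of all genes, and 0 higher, beside 5.09%, *Hand1* standing at 0.0949 against 146.8 RPM and *Tbx5* at 0.348 against 78.1 RPM. Within *Pdgfra* cells *Tbx5* was higher in the Lgr5-GFP+ sort, at 136.9 against 23.8 RPM (5.76-fold). Of the 10 position genes 1 was called higher in that comparison, beside 1.19% of all genes, and 0 lower, beside 1.08%.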

How the data were processed

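Single cells were prepared with Smart-seq2 and sequenced as single-end reads. The authors aligned the reads with STAR (2.6.0c) to GRCm38 (GRCm38.p6 in the submitters' processing notes), counted unique alignments per gene of Ensembl release 93 with featureCounts in Subread (1.6.2), and kept cells by mitochondrial share, spike-in share, depth and detected genes. These counts were deposited without normalisation and were used throughout. The deposited normalised table, a score scaled and batch-corrected by the authors (Scanpy 1.3.3 per the processing notes), was read for its gene list only.

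RPM were computed from reads in genes, and RPKM from merged exon lengths. RPM of a class were summed reads over summed totals, so cells with more reads weigh more, and genes under the floor of 3 reads on both sides got no ratio. Where 1 side had under 3 reads, its count was set to 3 for the ratio. Cells were grouped by their labels and marker reads, and library pools were read from the titles. No doublet caller was run, the sort having gated singlets. Named genes were the 5 highest per length in each class, all called Hox genes and the posterior ones, beside fixed lists. The members and lists were chosen with earlier results of these data known. Results for some genes of these lists are not reported here, though counts over a list include them. The comparison was tested on simulated data. Python 3.11.15, numpy 2.4.6, pandas 2.3.3, scipy 1.17.1, matplotlib 3.10.9 and, for TMM factors, edgeR 4.0.16 in R 4.3.3 were used. Alternatives covered the marker, detection and fold thresholds, the scaling and the pools.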

Additional observations from a re-analysis of the deposited data

How the results depend on the processing

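Of 237 alternatives over 18 results all but 38 left the value within 1.5 times or within its spread. TMM scaling moved no count outside that range. With any read as the marker threshold, the 7 Hox genes higher in *Pdgfra* than in *Afp* cells became 4, the 14 higher than in *Klf1* cells 0, the 12 lower in *Pax3* cells 6, and the 0 lower in Lgr5-GFP+ *Pdgfra* cells 3, the *Afp* and *Klf1* shares went from 0% to 17.02% and 45%, and the weighted mean group of *Pax3* cells went from 8.09 to 5.95 (6.99 with overlapping classes). Without the rule on pools the counts were 18 for *Pdgfra* against *Afp*, 16 for stage (main 7), 1 higher and 6 lower for Lgr5-GFP+ against bulk (main 0 and 0), and 4 and 7 within *Pdgfra* cells (main 1 and 0). Leaving out 1 pool at a time gave 7 to 14 (*Pdgfra* against *Afp*) and 7 to 11 (stage), both highest without pool 2. It gave 0 to 1 higher (1 without pool 2) and 0 to 2 lower (1 without pool 2, 2 without pool 3) between sorts, and 0 to 1 higher (0 without pool 1) and 0 to 1 lower (1 without pool 1 or pool 2) within *Pdgfra* cells. The *Pdgfra* share ran from 66.99% without pool 4 to 84.9% without pool 2, and the weighted mean of *Pax3* cells from 7.60 without pool 4 to 8.45 without pool 5. Without pools 3, 4 and 5 together the sort counts were 1 and 4, the higher count within *Pdgfra* cells 2, the *Pdgfra* share 37.5% and the median group 4.5 (main 5). A fold of 4 left 0 of the 1 gene higher in Lgr5-GFP+ *Pdgfra* cells. Detection at 1 read gave shares of 94.2% (*Pdgfra*), 92% (*Pax3*), 25.4% (*Afp*) and 28.1% (*Klf1*) and a *Pdgfra* median group of 7, and over 50 reads gave 66.9% in *Pdgfra* cells. In Lgr5-GFP+ cells alone, an alternative chosen after seeing the data, 7 genes were lower in *Pax3* cells. The cause of these moves was not tested. Leaving out pools 3, 4 and 5 was not run for 7 results, all of *Pax3* or *Klf1* cells, which were too few. No paired analysis was possible because replicate numbers only name cells and no test was made. Each group was 1 sample of cells, and with 25 *Pax3* cells a share is known only within its wide interval.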

Other observations

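Cells with more than 1 marker, 13 in all, belonged to no class above. All 3 cells with *Pdgfra* and *Pax3* carried Hox genes: 1 had *Hoxa2*, *Hoxa7*, *Hoxa9*, *Hoxa10*, *Hoxa11* and *Hoxb4* with 2846 Hox reads, 1 had *Hoxb4*, *Hoxc4*, *Hoxc5*, *Hoxd1* and *Hoxd3* with 401 reads, and 1 had *Hoxa2* and *Hoxb4* with 1665 reads. Of the 4 cells with *Afp* and *Pdgfra* 3 carried 2 Hox genes each, with 32, 552 and 1091 Hox reads. Of the 5 cells with *Klf1* and *Pdgfra* 1 carried *Hoxc4*, with 24 Hox reads, and the cell with *Afp* and *Klf1* carried none over 10 reads.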
